A study of Mus musculus with 7 samples.

Results

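The miR-26 family of the mouse consists of miR-26a and miR-26b, and its mature arms were measured by small RNA sequencing of the dissected lateral ventricles with their choroid plexus. The members were chosen by name: mmu-miR-26a-5p, mmu-miR-26a-1-3p, mmu-miR-26a-2-3p, mmu-miR-26b-5p and mmu-miR-26b-3p, which are 5 of the 1914 mouse miRNA rows. The tissue came from adult C57BL/6J mice, in 4 TAp73 knockout (KO) libraries and 3 wild type (WT) libraries. TAp73 denotes the isoforms of p73, a transcription factor of the p53 family, that include the transactivation domain, and the study asks, by its title, how they act after transcription when brain cells form many cilia. The labels give neither the allele nor the cells in which it is lost, and Trp73 mRNA was not measured, so the KO labels could not be checked against the targeted gene.

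A miRNA hairpin is cut into a pair of arms, of which 1 is usually kept by Argonaute as the guide and the other, the passenger, is degraded. The seed, bases 2 to 8 of the guide, pairs with target mRNAs. miR-26 hairpins lie within introns of genes for small C-terminal domain phosphatases (Ctdsp1, Ctdsp2 and Ctdspl), which act with the repressor REST to silence neuronal genes outside neurons. In zebrafish, miR-26b targets the transcript of its own host gene ctdsp2 during the formation of neurons. Another known target of miR-26 is Ezh2. Myc represses the expression of miR-26, and the terminal uridylyltransferase TUT4 (Zcchc11) adds uridines to its 3′ end.

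The mature sequences show how the arms are related, with the seed in capitals (RefSeq, build GRCm38.p6, 5′ to 3′).
mmu-miR-26a-5p: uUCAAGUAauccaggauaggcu
mmu-miR-26b-5p: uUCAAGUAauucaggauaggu
mmu-miR-26a-1-3p: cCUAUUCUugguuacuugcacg
mmu-miR-26a-2-3p: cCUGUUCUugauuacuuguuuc
mmu-miR-26b-3p: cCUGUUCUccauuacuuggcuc

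The 5p arms share the seed UCAAGUA, which no other of the 1679 mature mouse miRNA names in the RefSeq table carries. Counted from 1 at the 5′ end of miR-26a-5p, they differ at C11U and C21U and agree at the other 19 of 21 positions compared, and miR-26a-5p is 1 base longer. The separation of miR-26a-5p from miR-26b-5p reads therefore rests on few bases, and no source used here gives the counting rule. The 3p arms fall into a pair of seeds. miR-26a-2-3p and miR-26b-3p share CUGUUCU with miR-6932-3p and miR-7039-3p, which had 12 and 0 reads over the 7 libraries, while miR-26a-1-3p differs from miR-26a-2-3p in the seed at A4G and has CUAUUCU to itself.

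The hairpins show which arm belongs to which locus, with the mature arms in capitals.
Mir26a-1: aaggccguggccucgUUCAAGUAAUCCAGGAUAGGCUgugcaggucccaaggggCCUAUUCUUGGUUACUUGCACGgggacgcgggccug
Mir26a-2: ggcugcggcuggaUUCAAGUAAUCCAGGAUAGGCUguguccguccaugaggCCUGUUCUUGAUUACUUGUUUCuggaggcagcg
Mir26b: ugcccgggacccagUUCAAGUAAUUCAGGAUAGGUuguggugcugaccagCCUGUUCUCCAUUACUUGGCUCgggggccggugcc

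Mir26a-1 (chr9:119031796-119031885, plus strand) lies in intron 5 of the 8-exon transcript Ctdspl-201. Mir26a-2 (chr10:126995530-126995613, plus strand) lies in intron 5 of the 8-exon transcript Ctdsp2-202, and Mir26b (chr1:74394310-74394394, plus strand) in intron 4 of the 7-exon transcript Ctdsp1-201 (GENCODE release M21, GRCm38). Each is transcribed from the strand of its protein-coding host. Both miR-26a loci give the same 22-base 5p arm, so reads of miR-26a-5p cannot be assigned to a locus, whereas each 3p arm reports on a single locus.

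The KO libraries held 955057 to 9233235 mouse miRNA reads and the WT libraries 2211619 to 3647102, and the log2 totals did not differ beyond their spread (exact permutation p = 0.57, two-sided). Levels below are reads per 1000000 mouse miRNA reads (CPM). A count of 0 allows up to 3 reads, which is 3.14 CPM in KO replicate 3, the shallowest library, and between 0.325 and 1.36 CPM in the other 6. The labels do not state that each library is a separate animal, so the spread behind each p-value is that between libraries, which may be technical. Markers of the dissected tissue were present: the choroid plexus miRNAs miR-204-5p, miR-204-3p and miR-211-5p had reads in each library, as did 5 of the 6 arms of miR-34b, miR-34c, miR-449a and miR-449c that are abundant in multiciliated cells. In bulk tissue, fewer cells of a type and less miRNA per cell cannot be told apart.

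miR-26a-5p was among the most abundant miRNAs of this tissue in both genotypes, and the comparison of KO with WT did not pass the test for any miR-26 arm. mmu-miR-26a-5p stood at 62119, 61106, 53570 and 54090 CPM in KO replicates 1 to 4, against 51524, 61377 and 48931 CPM in WT replicates 1 to 3. WT replicate 2 lay among the KO libraries and the other WT libraries lay below all 4, so the groups overlapped. The means were 57721 ± 4517 CPM in KO (SD, n = 4) and 53944 ± 6567 CPM in WT (SD, n = 3), or 5.77% ± 0.45 and 5.39% ± 0.66 of mouse miRNA reads. In edgeR's quasi-likelihood test the log2 fold change was 0.17 ± 0.12 (SE, adjusted p = 0.59), and its 95% interval of -0.10 to 0.44 corresponds to 0.936-fold to 1.36-fold.

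miR-26b-5p, the guide from the Ctdsp1 intron, was far less abundant and also did not pass. mmu-miR-26b-5p stood at 2028, 2116, 1882 and 2160 CPM in KO replicates 1 to 4, against 2354, 1834 and 2417 CPM in WT replicates 1 to 3. Here WT replicate 2 was the lowest of the 7 libraries and the other WT libraries were the highest. For miR-26a-5p WT replicates 1 and 3 were the lowest, and WT replicate 2 lay below KO replicate 1 only. The means were 2047 ± 123 CPM in KO (SD, n = 4) and 2202 ± 319.6 CPM in WT (SD, n = 3). edgeR gave a log2 fold change of -0.03 ± 0.13 (SE, adjusted p = 0.94), and its 95% interval ran from -0.31 to 0.25.

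**Figure D1:**
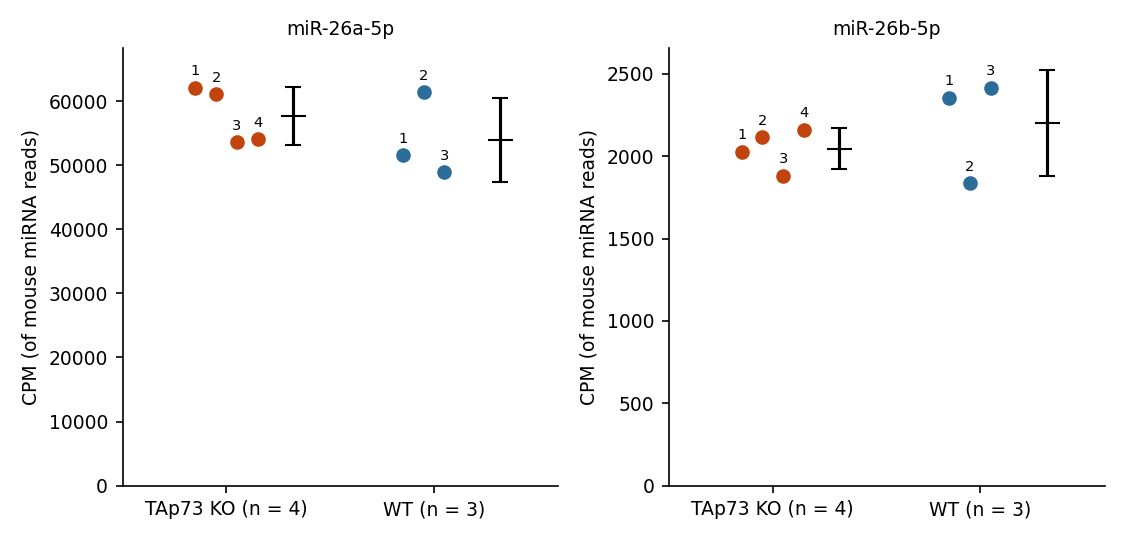
Level of the 5p arms in each library, in CPM of mouse miRNA reads on axes that start at 0, with TAp73 KO left of WT. Points are libraries with their replicate number and the black bars are the mean ± SD. For miR-26a-5p WT replicate 2, at 61377 CPM, lies with the KO libraries, and for miR-26b-5p it is the lowest library at 1834 CPM.

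Among 534 mouse miRNA rows tested, 6 (1.12%) were called at an adjusted p under 0.05, and 0 of the 3 tested miR-26 arms were among them. At an unadjusted p under 0.05 there were 69 rows (12.9%), of which 0 were miR-26 arms, and DESeq2 and limma-voom also called 0 of the 3. The CPM of the groups did not overlap in 63 rows (11.8%), and overlapped for all 3. The median log2 fold change of all tested rows was -0.02, with quartiles of -0.26 and 0.19, so miR-26a-5p and miR-26b-5p lay within the middle of the distribution and miR-26b-3p, at 0.43, lay above its upper quartile.

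**Figure D2:**
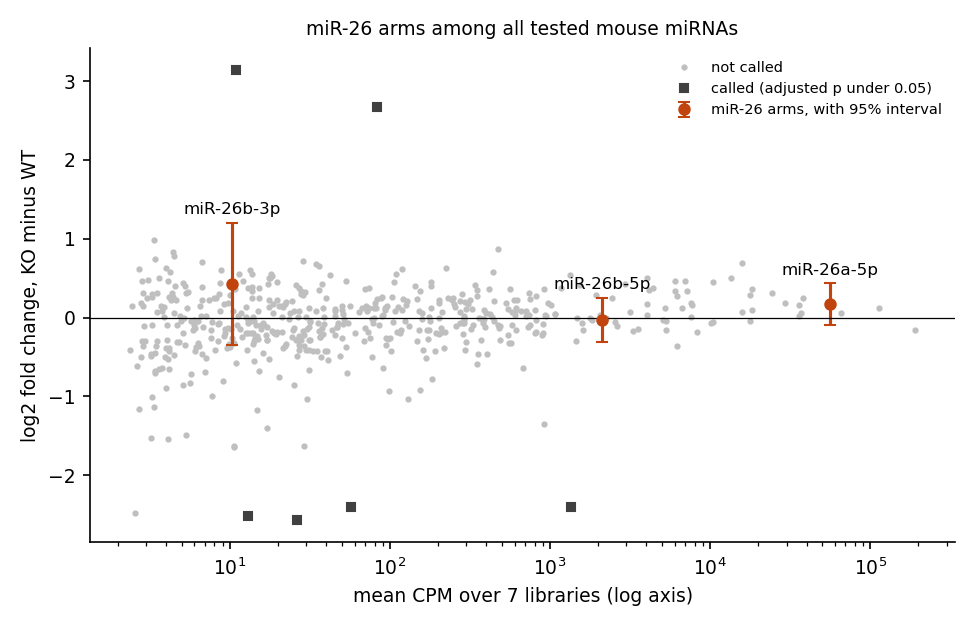
Log2 fold change (KO minus WT) of each of the 534 tested mouse miRNA rows against its mean CPM over 7 libraries on a log axis. Grey points were not called, dark squares are the 6 called rows, and red points are the 3 tested miR-26 arms with their 95% intervals, each of which includes 0.

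By mean level over the 7 libraries miR-26a-5p was the 4th most abundant mouse miRNA, at 56102 ± 5353 CPM (SD, n = 7), and it ranked 3 or 4 in each library. Above it miR-181a-5p, at 113738 ± 9612 CPM, was higher in 7 of 7 libraries. The next, miR-99b-5p at 65383 ± 8929 CPM, was higher in 4 of 7, so the order of this pair was not separated by the spread between libraries. Below it miR-125b-5p (37884 ± 3161 CPM) and miR-100-5p (36761 ± 4543 CPM) were lower in 7 of 7. miR-26b-5p ranked 49 by mean level, at 2113 ± 220.2 CPM, and 46 to 55 in single libraries. Its neighbours were not separated from it: miR-409-5p (2429 ± 605.9 CPM), miR-192-5p (2241 ± 115.3 CPM), miR-101a-3p (2064 ± 163.1 CPM) and miR-92a-3p (1949 ± 269.6 CPM) were higher than miR-26b-5p in 3, 5, 3 and 2 of the 7 libraries. Ligation and amplification favour some sequences, so an order by reads is not an order by molecules.

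Almost all miR-26 reads were thus miR-26a-5p. Of the 1822952 miR-26 reads in the 7 libraries, 1758140 (96.4%) were miR-26a-5p and 64414 (3.53%) were miR-26b-5p, while the 3 passenger arms together held 398. Within single libraries miR-26a-5p took 96.1% to 96.8% of miR-26 reads in KO and 95.3% to 97.1% in WT. Summed over its 5 arms the family stood at 59782 ± 4551 CPM in KO (SD, n = 4) and 56156 ± 6247 CPM in WT (SD, n = 3).

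The ratio of the 5p arms does not depend on how libraries are scaled, and it did not differ between KO and WT beyond the spread between libraries. There were 30.6, 28.9, 28.5 and 25.0 miR-26a-5p reads per miR-26b-5p read in KO replicates 1 to 4, against 21.9, 33.5 and 20.2 in WT replicates 1 to 3. WT replicate 2 had the highest ratio of the 7 libraries and the other WT libraries had the lowest. On the log2 scale KO was higher by 0.20 ± 0.23 (SE), or 1.15-fold (exact permutation p = 0.40, two-sided, adjusted p = 0.63 over the 4 ratios tested), so the fold changes of miR-26a-5p and miR-26b-5p were not shown to differ. The SD of the log2 ratio was 0.12 in KO and 0.39 in WT, and in WT it was 0.080 without WT replicate 2, so the wider WT spread rested on that library. The smallest p that 35 splits of 4 against 3 libraries allow is 0.029.

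The difference in this ratio between KO and WT depended on which WT libraries were kept. On the log2 scale it was 0.11 ± 0.37 (SE) without WT replicate 1 and 0.058 ± 0.31 without WT replicate 3, with overlapping groups. Without WT replicate 2 KO was higher by 0.42 ± 0.083, or 1.34-fold, with each of the 4 KO libraries above both remaining WT libraries. The exact permutation p was then 0.067 (0.27 adjusted over 4 ratios), the smallest that 15 splits allow, so that this design could not pass. miR-26a-5p had a log2 fold change of 0.30 ± 0.11 (SE) without WT replicate 2 (edgeR unadjusted p = 0.023, adjusted p = 0.23), and miR-26b-5p one of -0.12 ± 0.13 (edgeR adjusted p = 0.73). Without WT replicate 3 the log2 fold change of miR-26a-5p was 0.08 ± 0.12 (edgeR adjusted p = 0.86).

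WT replicate 2 was also low in miR-204-5p, the main choroid plexus miRNA. The summed choroid plexus miRNAs were 7435, 7058, 2016 and 5000 CPM in KO replicates 1 to 4, against 8320, 2015 and 11789 CPM in WT replicates 1 to 3. Nearly all of each sum was miR-204-5p, and miR-211-5p, a rare member, ran otherwise: it stood at 3.14, 2.47, 7.33 and 5.15 CPM in KO replicates 1 to 4, against 3.34, 4.52 and 6.85 CPM in WT replicates 1 to 3. WT replicate 3 and WT replicate 1, with the highest sums, had the lowest ratios of miR-26a-5p to miR-26b-5p, and WT replicate 2, with the lowest, had the highest. KO replicate 3 had a sum as low as WT replicate 2 and a ratio within the KO range. The summed neuronal list, 7 of 7 detected in each library, stood at 30581 to 35966 CPM in KO and at 26978, 31773 and 18997 CPM in WT replicates 1 to 3. The higher sum of WT replicate 2 than of WT replicate 1 came mainly from miR-128-3p (16667 and 10670 CPM), while miR-124-3p, miR-137-3p and miR-138-5p were highest of the WT libraries in WT replicate 1. The part of these markers in the ratio was not tested. With KO replicate 3 and WT replicate 2 both left out the ratio was higher in KO by 0.42 ± 0.10 on the log2 scale (exact permutation p = 0.10, the smallest 10 splits allow).

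**Figure D3:**
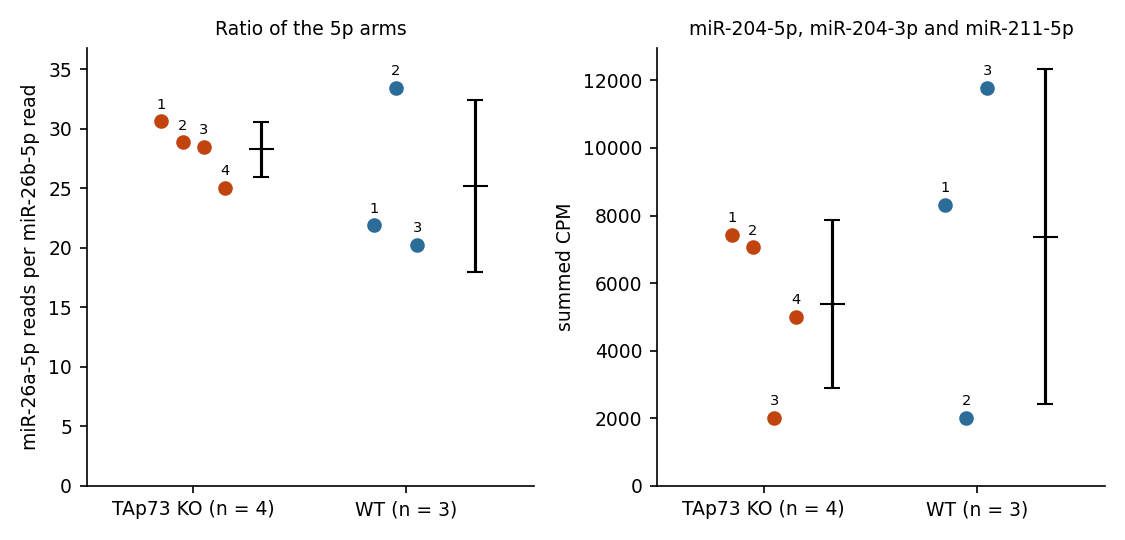
Left, miR-26a-5p reads per miR-26b-5p read in each library, and right, the summed CPM of miR-204-5p, miR-204-3p and miR-211-5p in the same libraries, both on axes from 0 with TAp73 KO left of WT. Points are libraries with their replicate number and black bars the arithmetic mean ± SD. WT replicate 2 is highest in the left panel, at 33.5, and lowest in the right panel, at 2015 CPM.

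The passenger arms were rare, and more so for miR-26a than for miR-26b. mmu-miR-26b-3p stood at 13.2, 10.5, 16.8 and 5.67 CPM in KO replicates 1 to 4, against 11.1, 7.69 and 7.13 CPM in WT replicates 1 to 3. KO replicate 3 was the highest from 16 reads and KO replicate 4 the lowest from 22 reads, so the KO libraries spanned the whole WT range. The means were 11.5 ± 4.67 CPM in KO (SD, n = 4) and 8.65 ± 2.16 CPM in WT (SD, n = 3), and edgeR gave a log2 fold change of 0.43 ± 0.35 (SE, adjusted p = 0.65), whose 95% interval ran from -0.35 to 1.20. The guide outnumbered this passenger by 152.9, 199.9, 108.9 and 372.6 to 1 in KO replicates 1 to 4, against 208.2, 231.9 and 332.6 to 1 in WT replicates 1 to 3. The log2 ratio differed by -0.43 ± 0.43 between KO and WT (SE, exact permutation p = 0.40, adjusted p = 0.63 over the 4 ratios), with overlapping groups. With 1 library left out, the difference was largest in size without KO replicate 4, at -0.76 ± 0.33. The groups did not overlap in that run (exact permutation p = 0.10, the smallest that design allows, adjusted p = 0.40). It was smallest in size without KO replicate 3, at -0.17 ± 0.43 with overlapping groups (exact permutation p = 0.70).

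Reads of the 3p arm came from both miR-26a loci, at levels near the limit of detection. mmu-miR-26a-2-3p, from the Ctdsp2 intron, had 15, 19, 0 and 11 reads in KO replicates 1 to 4, against 4, 0 and 7 reads in WT replicates 1 to 3. mmu-miR-26a-1-3p, from the Ctdspl intron, had 7, 8, 0 and 7 reads in the same KO libraries, against 2, 0 and 4 reads in the WT libraries. miR-26a-2-3p had more reads than miR-26a-1-3p in each of the 5 libraries where either arm was detected. In single libraries this order rests on few reads, such as 4 against 2 in WT replicate 1. An order by reads of the 3p arms is also not an order of output by the loci. Pooled, 28 of 84 miR-26a 3p reads came from Mir26a-1, or 33.3% (95% Clopper-Pearson interval 23.4 to 44.5, counting error only), with 22 of 67 (32.8%, 21.8 to 45.4) in KO and 6 of 17 (35.3%, 14.2 to 61.7) in WT.

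Neither of these arms passed the filter on low counts, so neither entered the test. Pooled over libraries miR-26a-2-3p stood at 2.07 CPM in KO (exact Poisson interval 1.51 to 2.77) and 1.29 CPM in WT (0.642 to 2.30). Pooled miR-26a-1-3p stood at 1.01 CPM in KO (0.633 to 1.53) and 0.701 CPM in WT (0.257 to 1.53). The intervals overlap for each arm. They treat the pooled reads of a group as a single sample, so the spread between libraries is left out. Single KO libraries ran from 0 to 2.83 CPM for miR-26a-2-3p and from 0 to 1.80 CPM for miR-26a-1-3p. The kit carries no molecular identifiers, so the intervals count reads and may be too narrow for molecules. The log2 ratio of miR-26a-1-3p to miR-26a-2-3p differed by -0.19 ± 0.38 (SE, exact permutation p = 0.63, adjusted p = 0.63 over the 4 ratios). In that test KO replicate 3 and WT replicate 2, with 0 reads of both arms, enter at a ratio of 1 set only by the 0.5 added to each count. Without these libraries the difference was -0.16 ± 0.18 (exact permutation p = 0.50).

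**Figure D4:**
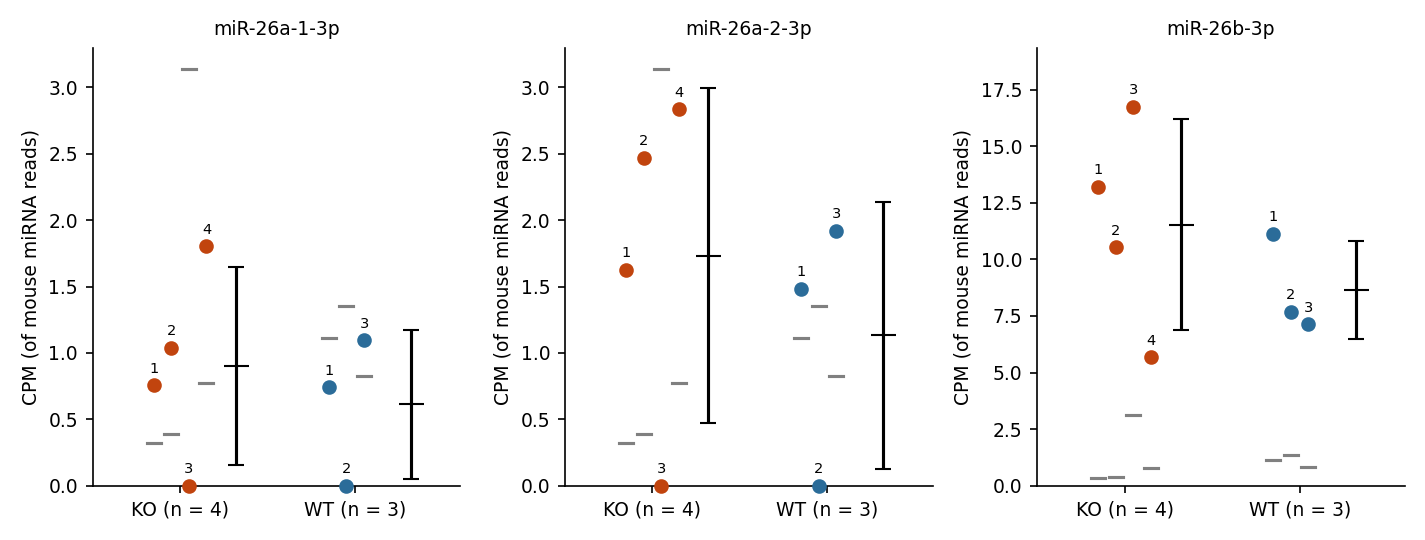
Level of the 3 passenger arms in each library, in CPM of mouse miRNA reads on axes that start at 0 and differ between panels, with KO left of WT. Points are libraries with their replicate number, black bars the mean ± SD, and grey dashes each library's limit of 3 reads. KO replicate 3 and WT replicate 2 hold 0 reads of both miR-26a 3p arms, and all 7 libraries lie above the limit for miR-26b-3p.

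Set against its own guide, the miR-26b passenger had far more reads than that of miR-26a. Per 100000 guide reads there were 651.6, 497.3, 890.4 and 262.4 miR-26b-3p reads in KO replicates 1 to 4, against 472.4, 419.0 and 295.0 in WT replicates 1 to 3. The corresponding numbers of miR-26a 3p reads, summed over both loci, were 3.84, 5.74, 0 and 8.58 in KO replicates 1 to 4, against 4.32, 0 and 6.16 in WT replicates 1 to 3. Pooled over the 7 libraries this was 487.5 per 100000 for miR-26b and 4.78 per 100000 for miR-26a, a 102.0-fold difference, and it was 30.6-fold to 169.9-fold in the 5 libraries with miR-26a 3p reads. In KO replicate 3 and WT replicate 2 a count of 0 allows up to 5.86 and 2.21 per 100000. The miR-26b values there were 151.8-fold and 189.6-fold these limits. They rest on 16 and 17 miR-26b-3p reads, whose counting error is not included, so these folds are not firm lower bounds. At the pooled rate of the other libraries 2.52 and 7.03 miR-26a 3p reads would be expected in KO replicate 3 and WT replicate 2, beside the 0 observed. The rarer guide thus had the more abundant passenger: miR-26b-3p exceeded the summed miR-26a 3p arms in 7 of 7 libraries. In KO replicate 4 the counts were 22 and 18 reads, a difference within counting error.

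For context, 111 mouse miRNA names had both arms listed and at least 10000 reads on the major arm. The 12 mouse rows whose name joins more than 1 miRNA were left out of this comparison. They include a joined 3p row of let-7a and let-7c at 79.1 CPM on average. The values of let-7a and let-7c, both placed above miR-26b, are therefore too high, and places and quartiles hold for this set only. The median was 132.2 major reads per minor read, with quartiles of 24.7 and 1338. miR-26b, at 204.8, was 50th from the top. Among the 105 names with reads on both arms miR-26a had the highest value, 20806 (0.5 added to each arm), and the next was miR-100 with 10286. The other 6 names had 0 reads on the minor arm, so their order relative to miR-26a is not determined. Among those at 0 were the names of miR-126a and miR-219a: miR-126a-5p and miR-219a-5p were listed at 0 in all 7 libraries beside 28839 reads of miR-126a-3p and 14716 of miR-219a-2-3p. No source used here says how the authors assigned reads to arms, and its part in the low miR-26a 3p values was not tested. The 35 rows of other species named miR-26 held 5 reads in all, 4 in KO and 1 in WT, and other names were not searched for miR-26 reads.

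The guides of miR-26a and miR-26b did not follow each other across the libraries. Likeness was measured as the SD over the 7 libraries of the log2 ratio of a miRNA to the member, among 201 rows with a mean of at least 100 CPM, so that a small value means nearly constant proportion. miR-26a-5p and miR-26b-5p had a value of 0.26, beside a median of 0.26 over all rows, and miR-26b-5p was 99th in likeness to miR-26a-5p. The rows most like miR-26a-5p were miR-22-3p (0.047), miR-708-3p (0.058), miR-673-5p (0.091), miR-16-5p (0.097) and miR-329-5p (0.10). Those most like miR-26b-5p were miR-181c-5p (0.077), miR-93-5p (0.096), miR-340-5p (0.099), miR-192-5p (0.10) and miR-21a-5p (0.10). Taken alone, both guides were steady: the SD of log2 CPM was 0.14 for miR-26a-5p and 0.15 for miR-26b-5p, against a median of 0.22, with 34 and 51 of the 201 rows steadier. Since each guide varied less than most rows, a ratio SD equal to the median of all rows does not make the pair typical. In the WT libraries the guides ran in opposite order, and in KO both were lowest in replicate 3. The 201 rows reach down to 100 CPM, where counting error adds to the SD, and the comparison was not matched for abundance.

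Other miRNAs that Myc represses together with miR-26 were called in neither direction by edgeR. Of 18 fixed members, including let-7, miR-15, miR-16, miR-29 and miR-30 arms, all were tested, 0 were called by edgeR (1.12% of all rows were) and 6 had an unadjusted p under 0.05 (12.9% of all rows had). Their log2 fold changes had a median of 0.21, with 14 positive and 4 negative, beside a median of -0.02 and 47.2% positive over all rows tested. The list median was 0.09 without WT replicate 3. With no filter edgeR called 2 members, let-7f-5p and let-7d-5p. DESeq2 called both of these and also let-7c-5p and let-7a-5p, 4 in all and each higher in KO, and limma-voom called 0. The smallest p-values belonged to let-7 guides, which restrain proliferation in differentiated tissue: let-7f-5p averaged 15205 CPM in KO and 11338 CPM in WT (0.50 ± 0.12, edgeR adjusted p = 0.10), let-7c-5p 7775 CPM in KO and 5944 CPM in WT (0.47 ± 0.12, adjusted p = 0.10), and let-7a-5p 6696 CPM in KO and 5140 CPM in WT (0.46 ± 0.12, adjusted p = 0.13). The fold change of miR-26a-5p lay below the list's median. It was near those of miR-22-3p (0.16 ± 0.13) and miR-16-5p (0.12 ± 0.14), the list members most like it in level across libraries. Rows in nearly constant proportion to miR-26a-5p over the same libraries must have a similar fold change, so this nearness is not a separate result.

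The miRNAs tied to REST and the Ctdsp phosphatases were not called by edgeR either. In this list, which shares miR-29a-3p and miR-29b-3p with the first, all 10 members were tested, 0 were called (1.12% of all rows were) and 2 had an unadjusted p under 0.05, a share near the 12.9% of all rows. Of their log2 fold changes 8 were positive and 2 negative (47.2% of all rows were positive), with a median of 0.25. DESeq2 and limma-voom called 0 as well. Without WT replicate 3 the median was 0.10, and without WT replicate 2 edgeR called miR-132-3p and miR-212-3p, both higher in KO, as it did miR-132-3p with no filter. The smallest p-values belonged to miR-132-3p, which neuronal activity induces, at 4560 CPM in KO and 3375 CPM in WT (0.51 ± 0.17, edgeR adjusted p = 0.27), to miR-9-5p of neural progenitors (0.31 ± 0.13, adjusted p = 0.38) and to miR-212-5p, from the same transcript as miR-132 (0.43 ± 0.20, adjusted p = 0.41). miR-124-3p, which targets the Ctdsp1 transcript in the chick spinal cord, averaged 7948 CPM in KO and 7441 CPM in WT (0.16 ± 0.21, adjusted p = 0.76). The summed list was lowest in WT replicate 3, at 35172 CPM, and the summed neuronal markers, which share miR-124-3p with it, were lowest in the same library, and their part in these values was not tested.

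**Figure D5:**
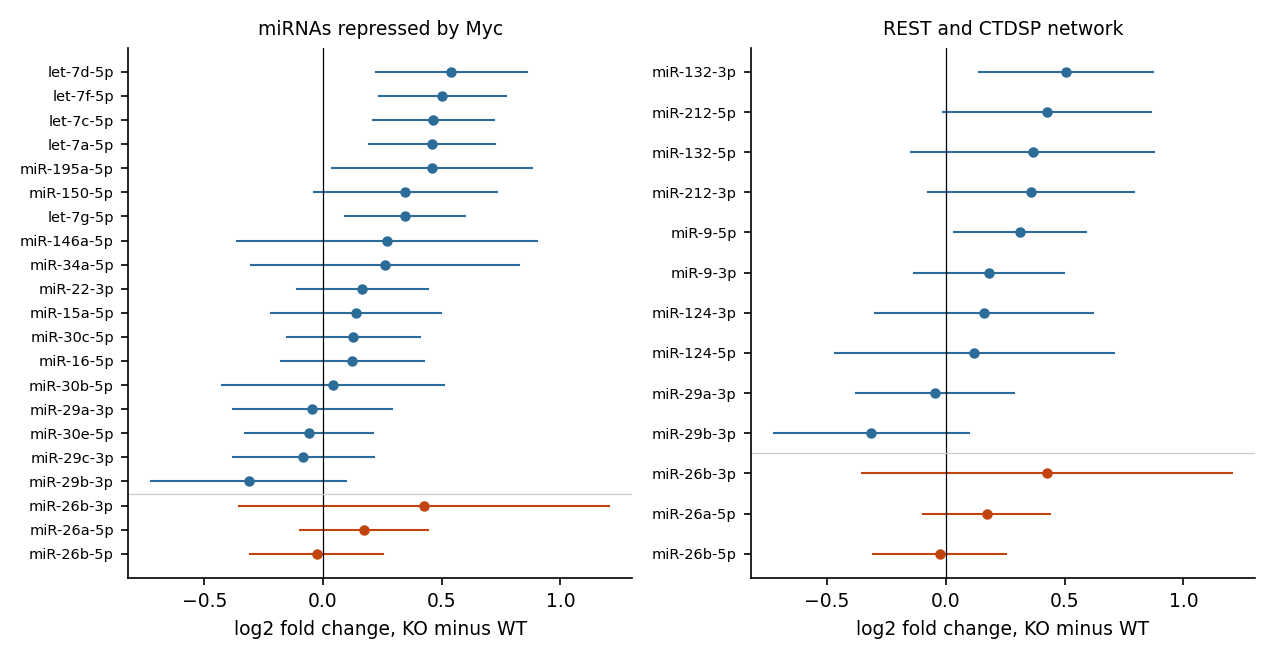
Log2 fold changes (KO minus WT, edgeR) with 95% intervals for the fixed lists of miRNAs repressed by Myc (left, 18 members) and of the REST and CTDSP network (right, 10 members) in blue, and for the 3 tested miR-26 arms in red below the line in both panels. The intervals of the let-7 guides lie above 0 although none of them was called after adjustment over 534 rows, and those of all 3 miR-26 arms include 0.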

How the data were processed

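Per the labels' protocols, total RNA came from a phenol and chloroform extraction and was sequenced after an Illumina TruSeq small RNA preparation. The authors deposited raw read counts per named small RNA, 1 table per library, not normalized. Named without a role in the submitters' processing notes are build mm10, DESeq2 and bcl2fastq 2.17.1.14. No source used here gives the aligner, the counting rule or the annotation. The 5 closing lines for unassigned reads held 0 reads.

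Levels are counts per 1000000 reads of all 1914 mouse miRNA rows, without further scaling. These rows were tested with the quasi-likelihood test of edgeR 4.0.16 in R 4.3.3, after filterByExpr (minimum count 10, minimum total 15), TMM scaling, robust dispersions and Benjamini-Hochberg adjustment, called under 0.05. It was tested on simulated data with changes planted in 200 rows. These were far larger than the differences of the miR-26 arms, so that run does not show the power for such small differences. The 4 ratios between arms were compared on the log2 scale, with 0.5 added to each count, by exact permutation tests. Alternatives used DESeq2 1.42.0, limma 3.58.1 (voom), other scalings and filters, rows summed over species and left-out libraries. Library pairs had a chi-square per degree of freedom of 46.6 to 271.2, so no pair differed by counting error alone. Separate preparations of the same RNA could not be told from separate samples in this way. Named miRNAs are the 5 members, the 5 most alike in level, 2 neighbours in rank on each side and, of each fixed list with no call, the 3 smallest p-values; miR-22-3p, miR-16-5p and miR-124-3p were added after their values were seen. The members and lists were chosen with earlier results of these data known. The other summed marker lists were as follows, in CPM. Oligodendrocyte miRNAs stood at 597.9 to 833.1 in KO and 603.2 to 996.7 in WT. Leukocyte and microglial miRNAs stood at 991.6 to 1122 in KO and 811.0 to 939.1 in WT, and erythrocyte miRNAs at 3764 to 5217 in KO and 3859 to 4196 in WT. Endothelial miRNAs stood at 785.3 to 984.8 in KO and 880.8 to 980.8 in WT, and those of multiciliated cells at 385.3 to 760.5 in KO and 1291 to 3675 in WT. That last sum is mostly miR-34c-5p: by edgeR the 4 arms of miR-34b and miR-34c fell, whereas miR-449a-5p (129.4 in KO and 22.2 in WT) and miR-449c-5p (17.4 in KO and 2.22 in WT) rose. With 1 library left out 3 to 6 of these 6 were called, all 6 only without KO replicate 3 or WT replicate 2 and 3 without WT replicate 1.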

Additional observations from a re-analysis of the deposited data

How the results depend on the processing

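None of the 3 tested miR-26 arms passed the threshold in any alternative run. No ratio passed either, but with 1 or more libraries left out the smallest p allowed was 0.067 or 0.10, so those runs could not pass and say nothing about stability of the call. With all 7 libraries the smallest exact permutation p was 0.029, so 1 ratio alone could not pass after adjustment either. miR-26a-5p stayed positive in 16 of 16 alternatives (log2 fold change 0.08 to 0.34, adjusted p 0.17 to 0.86) and so did miR-26b-3p (0.25 to 0.64, adjusted p 0.57 to 0.87). miR-26b-5p, near 0 throughout, turned positive with no filter (0.0048) and, among the fits that each left out 1 library, ranged from -0.12 to 0.022 (adjusted p over all alternatives 0.72 to 0.99); the cause was not tested. The ratio of the 5p arms stayed positive in 11 of 11 (0.06 to 0.42). Leaving out single libraries moved the ratio of the miR-26a 3p arms between -0.43 and 0.077 and that of miR-26a-5p to its 3p arms, -0.75 ± 1.48 with all libraries, between -1.51 and 0.55; both turned positive without WT replicate 2, which holds 0 reads of these arms. The ratio of miR-26b-5p to miR-26b-3p stayed negative (-0.76 to -0.17). With nothing added to counts, the 2 ratios with miR-26a 3p arms could not be computed. The called mouse miRNAs numbered 19 with no filter, 14 in DESeq2, 19 without KO replicate 3 and WT replicate 2, and 3 to 14 with 1 library left out, lowest without WT replicate 1 and highest without WT replicate 2. With no filter miR-26a-1-3p was at 0.71 ± 0.79 (edgeR adjusted p = 0.75) and miR-26a-2-3p at 0.85 ± 0.62 (0.70). No paired analysis was possible because the labels give no replicate numbers shared between the groups. Each miR-26a 3p arm rests on 0 to 19 reads per library.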
